A study of Mus musculus with 9 samples.

Results

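Axon guidance ligands and receptors were described in whole mouse corneas profiled by bulk RNA sequencing. The genes were every row of the count table whose symbol names a semaphorin of classes 3 to 7, a plexin, a neuropilin, a slit, a robo, a netrin, an Unc5 receptor, an ephrin or an Eph receptor, which gave 67 of 34142 gene names. They comprise 34 ligands and 33 receptors. Corneas came from Aire knockout mice treated with PBS (KO + PBS, n = 4), untreated Aire knockout mice (KO, n = 2) and untreated wild-type mice (WT, n = 3). Aire is a transcription factor of the thymus that is needed for tolerance to self tissues, and the series presents the knockout as a dry eye disease model. PBS, a buffered salt solution, was the treatment of the first group, and neither other group received one. The labels give no strain, sex, knockout allele or number of mice per library. Titles give 24 hr for KO + PBS libraries and 5 wk for both untreated groups, whereas the design text speaks of day 7 at 6 wk of age for all groups, and it is not known which time holds.

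Guidance molecules steer growing axons by attraction or repulsion and also shape epithelia, vessels and immune cells. Class 3 semaphorins are secreted and act through neuropilins paired with plexins, while semaphorins of the other vertebrate classes are held in the membrane and bind plexins directly. Slits are secreted ligands of robo receptors, and netrins are secreted ligands of Dcc, neogenin and Unc5 receptors. Ephrins sit in the membrane and bind Eph receptor tyrosine kinases on touching cells, and both partners can signal. The cornea is densely supplied with sensory axons of the trigeminal ganglion.

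Promoter sequences are shown for the 2 genes with the largest log2 decrease and the 2 with the largest log2 increase in KO against WT among members of at least 1 CPM (a count scaled to its library total), to give the sequence context of the strongest changes described below. They are taken from RefSeq (GRCm38.p6), run 5′ to 3′ on the strand of the gene and span 250 bases before to 50 bases after the start. Ephb1 lies at chr9:102354644-102354943 (minus strand), Slit2 at chr5:47982905-47983204 (plus strand), Sema7a at chr9:57939862-57940161 (plus strand) and Ephb3 at chr16:21204545-21204844 (plus strand). Capitals mark matches on either strand to the 6 motifs searched.
Ephb1: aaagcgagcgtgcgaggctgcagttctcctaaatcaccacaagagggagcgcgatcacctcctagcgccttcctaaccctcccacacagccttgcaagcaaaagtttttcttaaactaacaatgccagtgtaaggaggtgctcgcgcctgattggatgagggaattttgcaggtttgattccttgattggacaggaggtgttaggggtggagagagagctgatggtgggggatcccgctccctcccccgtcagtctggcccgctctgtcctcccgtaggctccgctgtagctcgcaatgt
Slit2: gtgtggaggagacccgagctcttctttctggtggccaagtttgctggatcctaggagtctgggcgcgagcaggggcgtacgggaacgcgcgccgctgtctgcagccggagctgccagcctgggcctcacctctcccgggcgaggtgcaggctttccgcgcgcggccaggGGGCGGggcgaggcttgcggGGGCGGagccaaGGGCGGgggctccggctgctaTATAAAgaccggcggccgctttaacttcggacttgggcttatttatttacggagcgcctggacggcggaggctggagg
Sema7a: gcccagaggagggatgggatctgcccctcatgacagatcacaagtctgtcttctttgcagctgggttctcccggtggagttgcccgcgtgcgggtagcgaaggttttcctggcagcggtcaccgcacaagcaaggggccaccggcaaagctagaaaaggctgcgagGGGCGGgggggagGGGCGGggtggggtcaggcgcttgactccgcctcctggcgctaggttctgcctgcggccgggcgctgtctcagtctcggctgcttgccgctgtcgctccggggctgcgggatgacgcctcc
Ephb3: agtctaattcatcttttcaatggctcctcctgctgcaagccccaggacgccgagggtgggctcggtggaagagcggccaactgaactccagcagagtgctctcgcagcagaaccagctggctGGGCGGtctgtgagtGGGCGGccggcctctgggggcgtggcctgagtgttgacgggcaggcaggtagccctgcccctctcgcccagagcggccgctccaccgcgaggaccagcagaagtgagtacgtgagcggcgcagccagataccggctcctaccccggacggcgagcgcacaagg

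The Slit2 window holds 3 GC boxes (GGGCGG) and 1 TATA box (TATAAA), those of Sema7a and Ephb3 hold 2 GC boxes each, and none of the 6 motifs is in the Ephb1 window. GC content was 55.7% in the Ephb1 window, 68.0% in that of Slit2, 67.3% in that of Sema7a and 66.7% in that of Ephb3, against a median of 52.7% over all promoters of the table. A promoter was found for 58 of the 67 members, with 74 promoters in all. A gene was counted once if any of its promoters held the motif. Promoters per gene and GC content were not matched between members and all genes. The GC box was present in 43 of these 58 (74.1%), against 38.2% of 27025 genes, and the TATA box in Efnb2 and Slit2 alone (3.45%), against 15.7% of all genes. An interferon-stimulated element core (2 copies of GAAA with any 2 bases between them) was found in Plxnc1 and Sema6b (3.45% of members, 3.99% of all genes). A STAT element (TTCNNNGAA) was in Efna3, Epha3 and Sema3e (5.17% and 9.55%), an AP-1 element (TGANTCA) in Sema4c, Sema4d and Sema6b (5.17% and 8.97%), and an NF-kB element (GGG and TTTCC with any 2 bases between them) in Sema6c (1.72% and 1.90%). Each was searched on both strands, and a match describes these letters only.

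Library totals ranged from 22913807 to 104480485 counts. The make-up of the counts differed between PBS-treated and untreated libraries, since processed pseudogenes took 0.289 to 0.361% of counts in KO + PBS libraries and 17.6 to 22.1% in untreated libraries, and mitochondrial genes had counts in KO + PBS libraries only. In both comparisons with KO + PBS, treatment and kind of library therefore cannot be told apart. Within KO + PBS, replicate 2 stands apart in mitochondrial share (6.13%, against 0.797 to 0.924% in the others) and in ocular marker genes, and results are given with and without it. KO replicate 2 stands apart in gland genes. Aire itself had 2 to 9 counts in KO + PBS libraries, 0 and 3 in KO and 3 to 16 in WT, too few to check the genotype labels. Levels are CPM scaled by TMM factors, and changes are log2 fold changes of edgeR's quasi-likelihood test, called at a Benjamini-Hochberg adjusted p under 0.05. The labels do not say whether libraries are single mice or pools, so p-values cover the spread among libraries, which may be technical.

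In wild-type corneas, 54 members reached a mean of 1 CPM, 32 reached 10 CPM and 13 stayed under 1 CPM. Plxnb2, a receptor for class 4 semaphorins, was the member with the highest level per kilobase of exon, at 67.3 ± 5.35 CPM per kb (SD, n = 3). The ephrin Efna1 followed at 35.7 ± 1.65 and the secreted semaphorin Sema3f at 33.8 ± 2.23 CPM per kb, which differ by less than their spread. Plxnb2 was also first in KO + PBS (88.2 CPM per kb) and in KO (111 CPM per kb).

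The next levels in WT belonged to Sema4a (22.9 CPM per kb), Efnb1 (19.5), Epha1 (19.4), Unc5a (18.8), Ephb3 (18.6), Efna3 (18.5), Epha2 (17.9) and Ntn4 (16.7). From Efnb1 to Ntn4 each step between neighbours in this order was smaller than the larger SD of the pair. Sema4b reached 14.8 and Plxnb1 13.5 CPM per kb. Among the slits and robos, Slit3 stood highest at 6.56 ± 0.49 CPM per kb, while Robo4, an endothelial receptor, and Slit2 had 0.665 and 0.589 CPM per kb. Ntn1 had 5.66 and Plxna1 4.55 CPM per kb. The netrin receptor Dcc, which is not a member, had 0.0633 CPM in WT and 0 counts in both KO libraries and was not tested, whereas its relative Neo1 had 24.3 and 22.1 CPM in KO and 29.8, 27.3 and 31.8 CPM in WT (log2 fold change -0.35, SE 0.12, edgeR adjusted p = 0.0823).

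The comparison of untreated KO with WT asks which guidance genes differ in the diseased cornea. The secreted ligands Slit2, Slit3, Sema3a, Sema3c, Sema3d, Ntn1 and Ntn4 were lower in KO, with Slit3 at 9.37 ± 0.93 CPM in KO and 39.8 ± 2.98 CPM in WT (SD, n = 2 and 3). The Eph receptors Epha1, Epha2 and Ephb3, known from epithelia, were higher, with Ephb3 at 275 ± 0.285 CPM in KO and 123 ± 6.91 CPM in WT. Sema7a, a semaphorin with a lipid anchor, was 3.80-fold higher, and Ephb1, a receptor of neural tissue, was lower. Of 62 members tested, 12 rose and 10 fell, which is 35.5% of them, against 20.4% of all 18006 genes tested (11.5% higher and 8.99% lower). Upper-quartile scaling gave 9 higher and 11 lower members, and 1688 higher and 2032 lower genes in place of 2062 and 1619. The median log2 fold change was 0.15 over the members and -0.02 over all genes. KO and WT libraries did not overlap for 44 of the 62 tested members, among them all 22 called. Separation of the groups is therefore not particular to called members, and its share over all genes was not computed.

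These calls come from a fit to the 5 untreated libraries. In a fit to all 9 libraries edgeR called 0 members (19 of 65 at an unadjusted p under 0.05) and 1.53% of all genes. DESeq2 on all 9 called 3 members higher and 9 lower and 10.1% of all genes. The biological coefficient of variation was 0.369 with all 9 libraries and 0.22 with the 5 untreated ones. Calls also depended on single WT libraries: without WT replicate 1, 2 or 3 the count was 12, 11 and 11 (8.81, 7.38 and 7.73% of all genes). Without KO replicate 1 or 2 it was 29 each (33.1 and 29.1% of all genes), with the single KO library left assumed to vary like WT. With each of the 5 libraries left out in turn, 10 calls held every time, those of Epha1, Epha2, Ephb3 and Sema7a (higher) and of Ephb1, Ntn1, Ntn4, Sema3c, Slit2 and Slit3 (lower). No called member changed direction in any of the fits. In bulk tissue, fewer cells of a type and less RNA per cell cannot be told apart.

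**Figure D1:**
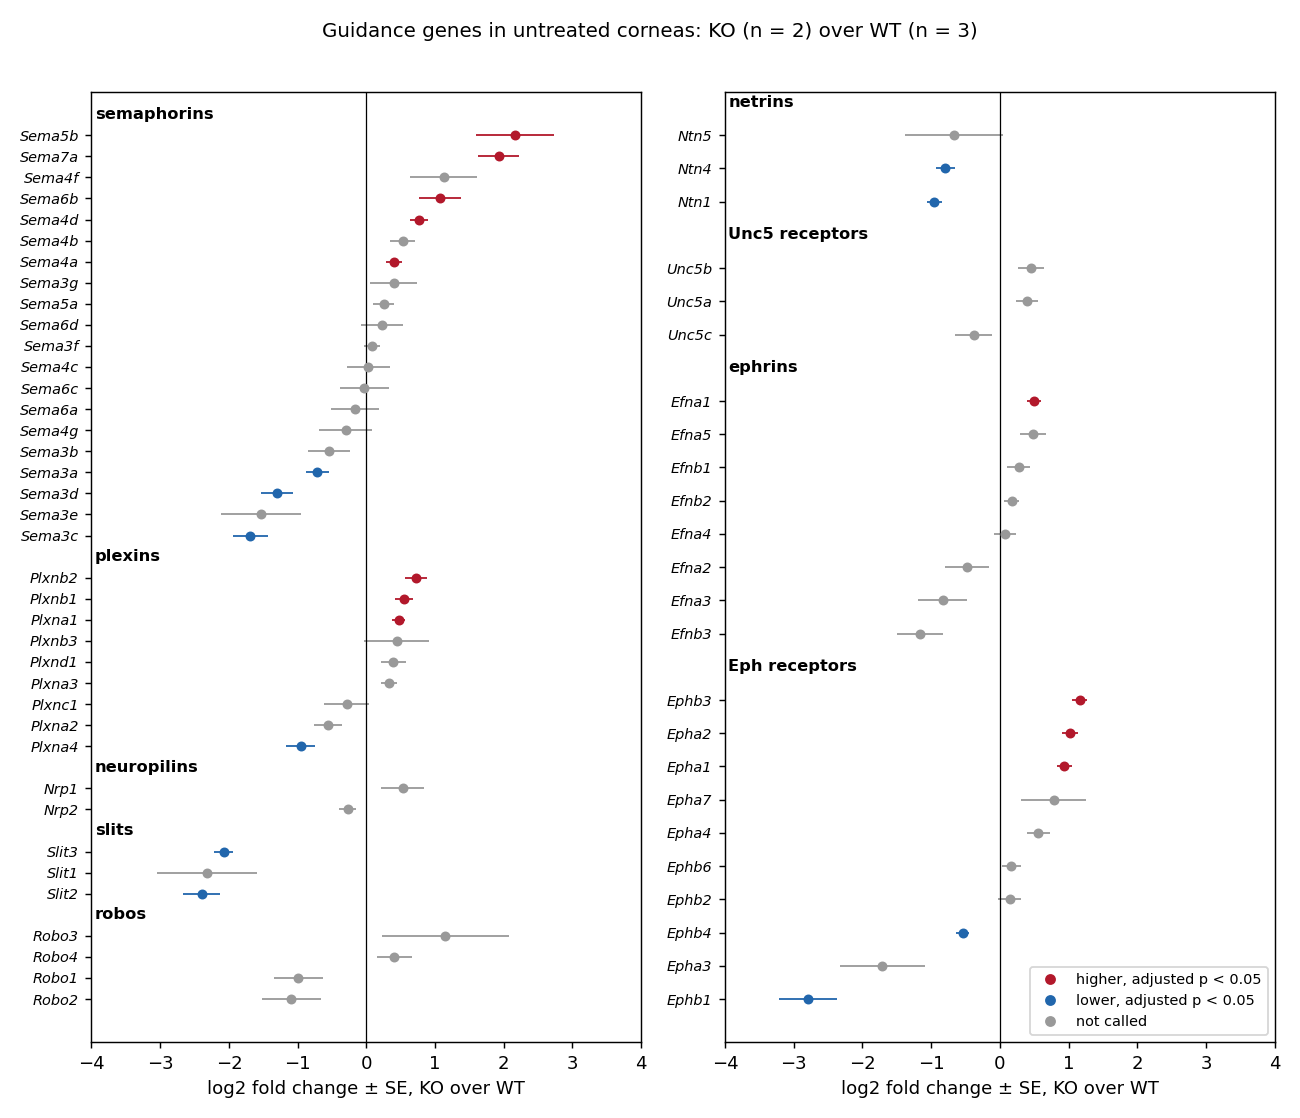
Log2 fold change of KO (n = 2) over WT (n = 3) with its standard error for the 62 tested members, ordered within each family. Red points rose, blue points fell and grey points were not called at an adjusted p of 0.05; both slits and both netrins that were called lie left of 0.

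Among the secreted semaphorins, 3 of 7 fell and none rose, where 8.99% of all genes fell and 11.5% rose. Sema3a, a repellent of sensory axons, had 5.14 and 5.12 CPM in KO, against 9.09, 7.76 and 8.51 CPM in WT. Sema3c had 9.10 and 5.52 CPM in KO, against 25, 19.0 and 26.1 CPM in WT. Sema3d had 1.86 and 1.82 CPM in KO, against 4.82, 4.83 and 3.98 CPM in WT. In all 3 genes both KO libraries lay below every WT library. The log2 fold changes were -0.72 (SE 0.17, edgeR adjusted p = 0.0263) for Sema3a and -1.69 (SE 0.26, adjusted p = 0.00708) for Sema3c. For Sema3d it was -1.30 (SE 0.23, edgeR adjusted p = 0.0102). The Sema3a call was lost without any 1 of the WT libraries (adjusted p = 0.0811 to 0.106) and the Sema3d call without WT replicate 2 (adjusted p = 0.0638). Sema3b, Sema3e, Sema3f and Sema3g were not called, and Sema3f, the most abundant of the class, had 186 and 186 CPM in KO and 163, 185 and 179 CPM in WT.

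Among the membrane-bound semaphorins, 5 of 13 rose and none fell, where 11.5% of all genes rose and 8.99% fell. Sema7a had 6.36 and 6.53 CPM in KO, against 2.17, 1.81 and 1.11 CPM in WT. Sema4d, an immune semaphorin that binds plexins of class B, had 102 and 128 CPM in KO, against 68.7, 72.2 and 62.3 CPM in WT. Sema4a, which acts on T cells, had 152 and 173 CPM in KO, against 122, 128 and 121 CPM in WT. Each KO library exceeded every WT library in these 3 genes. Sema7a rose by 1.93 on the log2 scale (SE 0.30, edgeR adjusted p = 0.00701), Sema4d by 0.77 (SE 0.13, adjusted p = 0.0102) and Sema4a by 0.40 (SE 0.11, adjusted p = 0.0497). Sema6b, a transmembrane ligand of class A plexins, had 2.15 and 2.37 CPM in KO and 0.841, 1.09 and 1.28 CPM in WT, a rise of 1.08 (SE 0.31, edgeR adjusted p = 0.0485). Sema5b was called at means of 0.982 CPM in KO and 0.227 CPM in WT (log2 fold change 2.16, SE 0.57, edgeR adjusted p = 0.0392), from 60 and 28 counts, and the call was lost without any 1 WT library or KO replicate 1 (0.0603 to 0.112). Calls were lost for Sema4d without WT replicate 1 or 3 (adjusted p = 0.0557 and 0.0568), and for Sema4a (0.0565 to 0.182) and Sema6b (0.0759 to 0.154) without any 1 WT library or KO replicate 2. The 8 others, Sema4b, Sema4c, Sema4f, Sema4g, Sema5a, Sema6a, Sema6c and Sema6d, had log2 fold changes of -0.30 to 1.13.

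Of the semaphorin receptors, 3 of 9 plexins rose, 1 fell and neither neuropilin was called, where 11.5% of all genes rose and 8.99% fell. Plxnb2 had 749 and 963 CPM in KO, against 493, 567 and 499 CPM in WT. Plxnb1, a receptor of Sema4d, had 204 and 174 CPM in KO, against 118, 130.1 and 142 CPM in WT. Plxna1, which pairs with neuropilins, had 55.2 and 58.6 CPM in KO, against 39.4, 41.9 and 42.1 CPM in WT. In each of these the KO libraries were the 2 highest of the 5. The log2 fold changes were 0.72 (SE 0.16, edgeR adjusted p = 0.0204) for Plxnb2, 0.55 (SE 0.13, adjusted p = 0.0306) for Plxnb1 and 0.47 (SE 0.10, adjusted p = 0.0171) for Plxna1. Plxna4, a receptor used by sensory axons, had 3.03 and 2.62 CPM in KO, against 6.05, 5.07 and 5.31 CPM in WT, and fell by 0.95 on the log2 scale (SE 0.21, edgeR adjusted p = 0.0211). All 4 calls were lost without any 1 WT library, at adjusted p = 0.0707 to 0.105 for Plxnb2, 0.0768 to 0.139 for Plxnb1, 0.0789 to 0.0868 for Plxna1 and 0.0782 to 0.0860 for Plxna4. For Plxna1, 10.7% of the exon bases overlap the gene Gm26811 on the other strand. Plxna2, Plxna3, Plxnb3, Plxnc1 and Plxnd1 were not called (-0.55 to 0.44), nor were Nrp1 (0.53) and Nrp2 (-0.27).

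Both abundant slits fell. Slit2, which promotes branching of sensory axons, had 3.77 and 2.05 CPM in KO, against 15.7, 14.4 and 14.7 CPM in WT. Slit3 had 8.71 and 10.02 CPM in KO, against 37.0, 43.0 and 39.3 CPM in WT. Neither gene overlapped between the groups. Slit2 fell by 2.40 (SE 0.27, edgeR adjusted p = 0.00256) and Slit3 by 2.08 (SE 0.13, adjusted p = 0.000421) on the log2 scale. Slit1 had 0.294 and 0.296 CPM in KO and 0.679, 2.74 and 0.946 CPM in WT (log2 fold change -2.32, SE 0.73, edgeR adjusted p = 0.0661) and was not called. None of the 4 robos was called, with log2 fold changes of -1.09 for Robo2, -0.99 for Robo1, 0.41 for Robo4 and 1.15 for Robo3.

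The 2 netrins above 1 CPM fell as well. Ntn1, a secreted attractant or repellent depending on the receptor, had 17.2 and 19.3 CPM in KO, against 35.8, 35.0 and 35.8 CPM in WT. Ntn4, a basement membrane netrin, had 34.4 and 37.5 CPM in KO, against 57.1, 58.8 and 71.9 CPM in WT. The KO libraries were below all WT libraries in both, and the decreases were 0.95 (SE 0.11, edgeR adjusted p = 0.00277) for Ntn1 and 0.79 (SE 0.13, adjusted p = 0.00924) for Ntn4 on the log2 scale. Ntn5 had 0.0489 and 0.254 CPM in KO and 0.291, 0.335 and 0.195 CPM in WT and was not called. The dependence receptors Unc5a (0.39), Unc5b (0.45) and Unc5c (-0.38) were not called, and Unc5d had 0 counts in both KO libraries and was not tested.

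**Figure D2:**
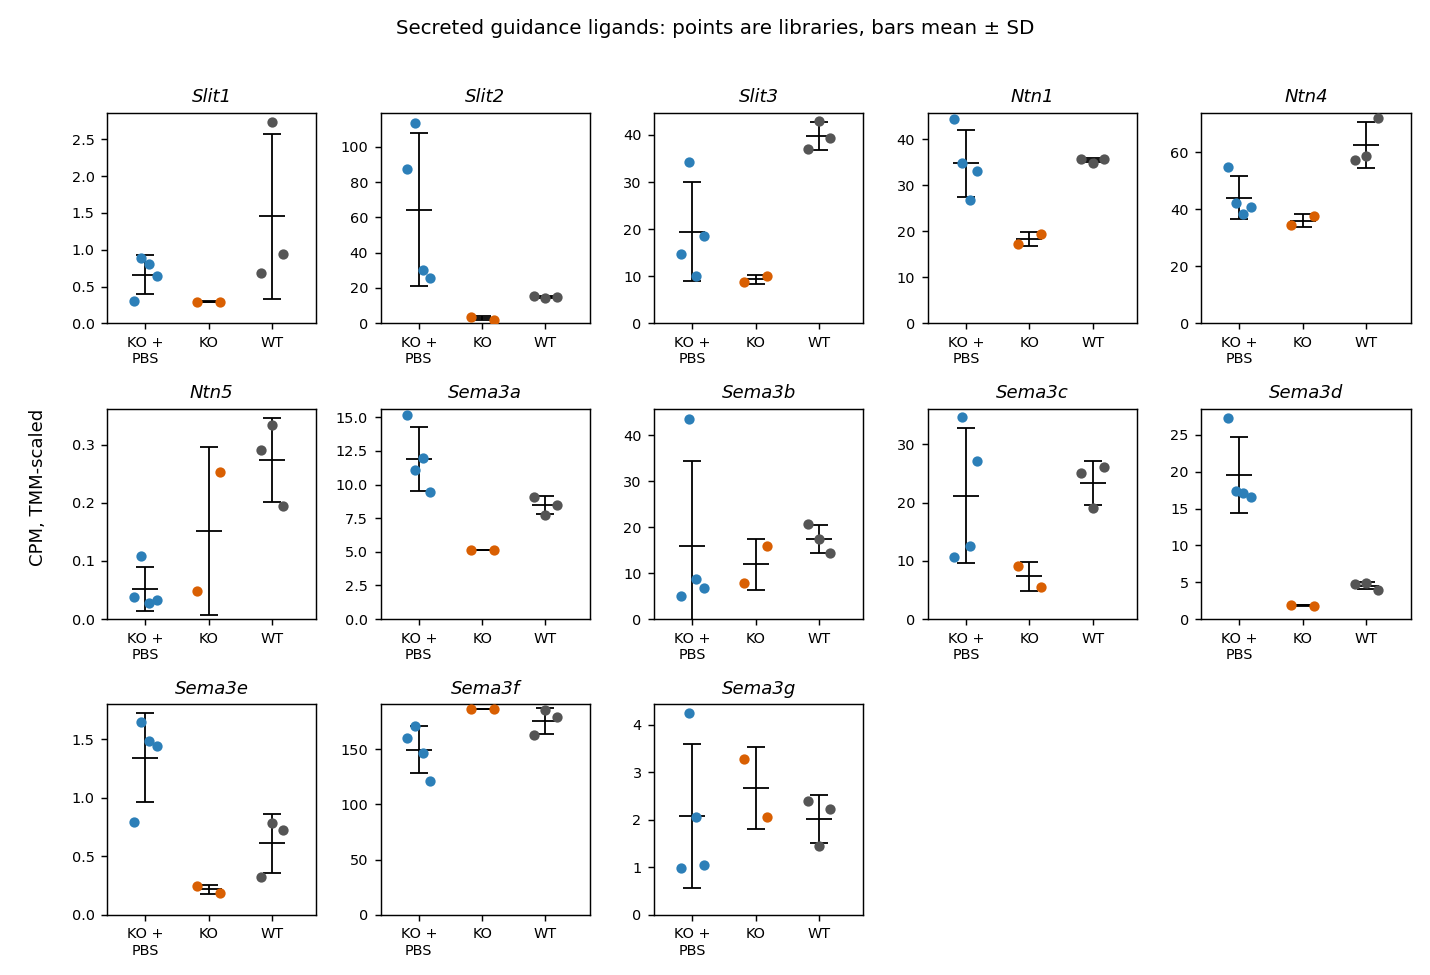
CPM (TMM-scaled, linear axes from 0) of the 13 secreted ligands in each KO + PBS, KO and WT library, with mean and SD as bars. KO + PBS libraries lie above both other groups for Slit2, Sema3a, Sema3d and Sema3e, and KO libraries lie below WT libraries for all 3 slits, Ntn1, Ntn4, Sema3a, Sema3c, Sema3d and Sema3e. Over all families, KO and WT libraries did not overlap for 44 of the 62 tested members, and the share over all genes was not computed.

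Of the ephrins, 1 of 8 rose (12.5%), near the 11.5% of all genes that rose. Efna1, a ligand of Epha2, had 88.4 and 95.4 CPM in KO, against 68.7, 64.5 and 62.9 CPM in WT, and rose by 0.50 on the log2 scale (SE 0.10, edgeR adjusted p = 0.0174). Both KO libraries were higher than every WT library, but the call was lost without any 1 WT library (adjusted p = 0.0642 to 0.0929). Efnb3 had 0.538 and 0.677 CPM in KO and 1.52, 1.36 and 1.28 CPM in WT (log2 fold change -1.16, edgeR adjusted p = 0.0539) and was not called. Efna2, Efna3, Efna4, Efna5, Efnb1 and Efnb2 were not called either, at -0.83 to 0.48.

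Eph receptors moved in both directions, with 3 of the 10 tested higher and 2 lower, where 11.5% of all genes rose and 8.99% fell. Ephb3 had 275 and 274 CPM in KO, against 117, 131 and 122 CPM in WT. Epha2, an epithelial receptor, had 168 and 170.2 CPM in KO, against 77.3, 82.2 and 90.8 CPM in WT. Epha1 had 148 and 143 CPM in KO, against 76.3, 70.1 and 82.0 CPM in WT. Every KO value lay well above every WT value in these 3 genes. On the log2 scale Ephb3 rose by 1.16 (SE 0.11, edgeR adjusted p = 0.00158), Epha2 by 1.02 (SE 0.11, adjusted p = 0.00245) and Epha1 by 0.94 (SE 0.11, adjusted p = 0.00308). Exons of Epha1 share 6.01% of their bases with Zyx on the other strand, and reads of the 2 genes cannot be told apart there without a stated strand setting. Ephb1 had 0.832 and 0.338 CPM in KO, against 4.14, 3.25 and 4.03 CPM in WT, a log2 fold change of -2.79 (SE 0.43, edgeR adjusted p = 0.00676). Its size depended on the KO libraries, at -3.47 without KO replicate 1 and -2.18 without KO replicate 2. Ephb4, a receptor of Efnb2 on veins, had 30.4 and 29.4 CPM in KO, against 42.4, 43.6 and 44.9 CPM in WT. It fell by 0.54 (SE 0.10, edgeR adjusted p = 0.0113), a call lost without WT replicate 2 or 3 (adjusted p = 0.0638 and 0.0695). Epha3, Epha4, Epha7, Ephb2 and Ephb6 were not called (-1.71 to 0.78), and Epha5, Epha6, Epha8 and Epha10, with at most 15 counts summed over either untreated group, were not tested.

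**Figure D3:**
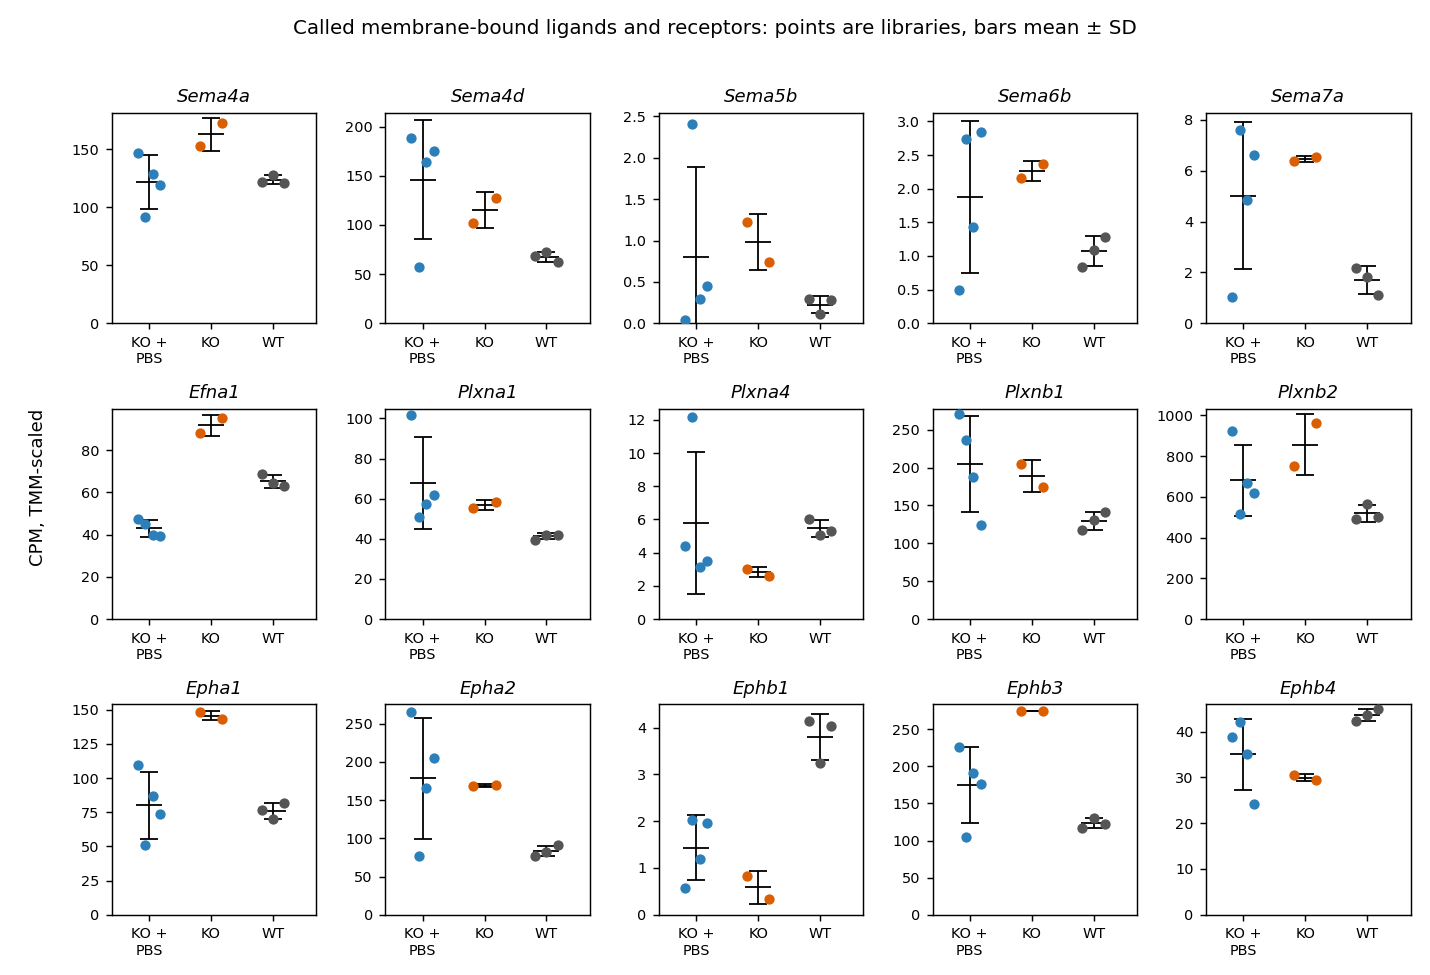
CPM (TMM-scaled, linear axes from 0) of the 15 membrane-bound ligands and receptors called in KO against WT, in each KO + PBS, KO and WT library, with mean and SD as bars. KO libraries lie above WT libraries in 12 panels and below them for Plxna4, Ephb1 and Ephb4, and KO + PBS libraries are more spread than both other groups in most panels. KO and WT did not overlap for any of the 22 called members, nor for 44 of the 62 tested, and the share over all genes was not computed.

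The direction of the calls followed the way the ligands are held, a grouping chosen after these values were seen and therefore described without a test. Of 13 secreted ligands (class 3 semaphorins, slits and netrins), 0 rose and 7 fell, with a median log2 fold change of -0.95. Of 21 membrane-bound ligands, 6 rose and 0 fell, with a median of 0.25. Of 28 receptors tested, 6 rose and 3 fell, with a median of 0.39. Over all genes tested, 11.5% rose and 8.99% fell. Over the 16 other fits, secreted ligands had 0 higher calls in each and 0 to 8 lower ones, while membrane-bound ligands had 0 to 8 higher and 0 to 3 lower. The secreted ligands summed to 278 and 286 CPM in KO, against 372, 390.5 and 398 CPM in WT. Membrane-bound ligands summed to 662 and 812 CPM in KO, against 571, 582 and 564 CPM in WT, and receptors to 1901 and 2121 CPM in KO, against 1218, 1326 and 1266 CPM in WT. For none of the 3 classes did the KO and WT sums overlap, but the sums restate the values by which the classes were chosen. They also rest largely on single genes. Plxnb2 gave 749 and 963 CPM of the receptor sums in KO. Sema3f, which was not called, gave 186 and 186 CPM of the secreted sums in KO.

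Marker lists of cell types were read in the same comparison, where 11.5% of all genes rose and 8.99% fell. Of 14 keratocyte markers 11 fell and 0 rose, with summed levels of 1410 and 2693 CPM in KO and 7561 to 8124 CPM in WT, and of 10 corneal endothelium markers 9 fell and 0 rose, with 147 and 149 CPM in KO and 844 to 916 CPM in WT. Of 12 corneal epithelium markers 1 rose and 0 fell, with 71607 and 106800 CPM in KO and 83789 to 96708 CPM in WT. Leukocyte markers rose for 12 of 19 and fell for 1 (386 and 620 CPM in KO, 287 to 327 CPM in WT), and vessel endothelium markers rose for 3 of 13 and fell for 2 (124 and 136 CPM in KO, 114 to 135 CPM in WT). Schwann cell markers rose for 3 of 12 and fell for 1 (5709 and 6227 CPM in KO, 3576 to 3837 CPM in WT). Axonal neuron transcripts fell for 2 of 8 and rose for none (5.52 and 6.02 CPM in KO, 10.5 to 13.97 CPM in WT), with the sensory channel genes Scn9a at 0 counts in all 5 libraries and Scn10a at 0 in all but KO replicate 2. Of 10 gland markers tested 1 rose and 0 fell, and the list summed to 180.2 CPM in the first and 2401 CPM in the second KO library, against 43.5 to 105 CPM in WT. Lens, iris and skeletal muscle markers had no call, and retina and lymphatic markers 1 lower each. Retina markers still had a median log2 fold change of -2.60, with 3 of 15 above 0 (28.1 and 53.7 CPM in KO, 53.5 to 449 CPM in WT). For lens markers it was -1.02, with 1 of 14 above 0 (169 and 177 CPM in KO, 177 to 608 CPM in WT). The median was -0.78 for lymphatic, 0.42 for iris and 1.65 for skeletal muscle markers. The part of these cell types in the changes of guidance genes was not tested.

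A wider list of 76 guidance co-receptors and signalling genes was read beside the members. Of 70 tested, 11 rose and 8 fell in KO, which is 27.1% of them, against 20.4% of all genes, with a median log2 fold change of 0.16, and 0 were called in the fit to all 9 libraries (15 at an unadjusted p under 0.05). Ntng1, a membrane-anchored netrin G, had 0.245 and 0.804 CPM in KO and 2.46, 1.95 and 2.34 CPM in WT (-1.98, SE 0.48, edgeR adjusted p = 0.0296). The chimaerins Chn1 and Chn2, which switch off Rac below guidance receptors, fell by 1.38 (SE 0.32, edgeR adjusted p = 0.0261) and 1.66 (SE 0.30, adjusted p = 0.0113) on the log2 scale. Dpysl3, a collapsin response mediator, had 26.7 ± 8.96 CPM in KO and 74.7 ± 7.12 CPM in WT (SD, n = 2 and 3), a log2 fold change of -1.47 (SE 0.22, edgeR adjusted p = 0.00646). Fes, a cytoplasmic tyrosine kinase linked to plexins, rose, with 17.9 and 12.4 CPM in KO and 5.14, 5.33 and 5.92 CPM in WT (1.47, SE 0.19, edgeR adjusted p = 0.00427). The remaining rises were Kalrn, Limk2, Src, Rgma, Enah, Cfl1, Gsk3b, Pak1, Nck2 and Mical2, and the remaining decreases Dpysl2, Fyn, Srgap3 and Farp1.

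The comparisons of KO + PBS with KO and with WT show where the guidance genes stand in the KO + PBS libraries. Treatment and kind of library cannot be told apart in any of them. Slit2, Sema3d, Nrp1, Sema6d, Plxna2 and Efnb2 were among the genes called higher in KO + PBS than in both other groups, and Efna1, Efna4 and Sema6c among those called lower than in both. Slit2 averaged 64.3 ± 43.3 CPM in KO + PBS (SD, n = 4), against 2.91 ± 1.21 CPM in KO (n = 2) and 15.0 ± 0.667 CPM in WT (n = 3). Of 65 members tested, 18 rose and 6 fell against KO (36.9%), where 52.9% of all 18489 genes were called (21.8% higher and 31.1% lower). Against WT, 15 rose and 8 fell (35.4%), where 56.3% of all genes were called (25% higher and 31.3% lower). In both comparisons, which share the KO + PBS libraries, the members' share was below that over all genes. With upper-quartile scaling 21 members rose and 4 fell against KO, and 25 rose and 5 fell against WT. The median log2 fold change against KO was 0.41 over the members and -0.09 over all genes, and against WT it was 0.54 and -0.02. The members together took 3606 to 4312 CPM before TMM scaling in KO + PBS libraries, 2222 and 2292 CPM in KO and 1743 to 1853 CPM in WT. After scaling, this separation held only in part. Scaled receptor sums were 2349, 1476, 1727 and 1603 CPM in KO + PBS, against 1901 and 2121 CPM in KO. They overlapped KO but lay above the 1218, 1326 and 1266 CPM in WT. Membrane-bound ligands summed to 963, 547, 789 and 743 CPM, against 662 and 812 CPM in KO. They overlapped KO and also the 571, 582 and 564 CPM in WT. Secreted ligands summed to 422, 509, 307 and 302 CPM, all above the 278 and 286 CPM in KO. They overlapped the 372, 390.5 and 398 CPM in WT.

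Secreted ligands counted 6 higher and 0 lower of 12 tested against KO, where 52.9% of all genes were called (21.8% higher and 31.1% lower). Against WT 2 of the 12 were higher and 2 lower, where 56.3% of all genes were called. In neither comparison was the share of secreted ligands called above that over all genes. Slit2 had 87.6, 114, 30.3 and 25.7 CPM in KO + PBS replicates 1 to 4, against 3.77 and 2.05 CPM in KO and 14.4 to 15.7 CPM in WT. It rose by 4.49 (SE 0.73, edgeR adjusted p = 0.000823) against KO and by 2.10 (SE 0.53, adjusted p = 0.00826) against WT on the log2 scale. Sema3d had 27.3, 17.4, 17.1 and 16.5 CPM in KO + PBS, against at most 1.86 CPM in KO and 4.83 CPM in WT. Its log2 fold changes were 3.41 (SE 0.29, edgeR adjusted p = 1.33e-05) against KO and 2.10 (SE 0.23, adjusted p = 5.60e-05) against WT. Sema3e, a ligand of Plxnd1, had 0.791, 1.65, 1.49 and 1.44 CPM in KO + PBS and 0.245 and 0.190 CPM in KO (2.63, SE 0.59, edgeR adjusted p = 0.00477), a call lost without KO replicate 2 (adjusted p = 0.0506).

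Of the other secreted ligands that were lower in KO than in WT, Ntn1, Sema3a and Sema3c rose in KO + PBS against KO, and Slit3 and Ntn4 were not called. Ntn1 had 44.4, 34.9, 26.7 and 33.1 CPM in KO + PBS, with a log2 fold change of 0.93 against KO (SE 0.20, edgeR adjusted p = 0.00412) and -0.03 against WT (SE 0.17, adjusted p = 0.893). Sema3a rose by 1.22 against KO (SE 0.23, edgeR adjusted p = 0.00186) and was not called against WT (0.50, SE 0.19). Sema3c rose by 1.55 against KO (SE 0.50, edgeR adjusted p = 0.0278) with values of 10.7, 34.7, 12.5 and 27.1 CPM in KO + PBS, and was not called against WT (-0.14, SE 0.41). Against WT, Slit3 and Ntn4 fell by 1.03 (SE 0.35, edgeR adjusted p = 0.0304) and 0.51 (SE 0.16, adjusted p = 0.0228). The Sema3c call against KO was lost without KO replicate 1 or 2 or KO + PBS replicate 4 (adjusted p = 0.0594, 0.197 and 0.0525). Against WT the Slit3 call was lost without any 1 WT library or KO + PBS replicate 1 or 4 (0.0526 to 0.0882), and the Ntn4 call without WT replicate 3 or KO + PBS replicate 3 or 4 (0.0575 to 0.106).

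Among membrane-bound ligands, Sema6d, which binds Plxna1, had 20.2, 18.7, 13.8 and 11.7 CPM in KO + PBS, against 6.21 and 3.17 CPM in KO and 3.69, 3.85 and 4.37 CPM in WT. Efnb2, an arterial marker, had 112, 42.2, 76.7 and 88.3 CPM in KO + PBS, against 24.9 and 23.4 CPM in KO and 22.6, 20.2 and 21.7 CPM in WT. Sema4c, a ligand of Plxnb2, had 23.5, 23.3, 25.3 and 17.7 CPM in KO + PBS, against 12.9 and 6.09 CPM in KO and 8.80, 8.35 and 10.6 CPM in WT. All KO + PBS libraries were above all untreated libraries in these 3 genes. Lack of overlap was a condition for naming genes in each comparison, so this mostly restates the choice. Against KO the log2 fold changes were 1.79 (SE 0.34, edgeR adjusted p = 0.00202) for Sema6d, 1.72 (SE 0.34, adjusted p = 0.00239) for Efnb2 and 1.25 (SE 0.30, adjusted p = 0.00742) for Sema4c. Against WT they were 2.02 (SE 0.29, edgeR adjusted p = 0.000372), 1.89 (SE 0.29, adjusted p = 0.000529) and 1.28 (SE 0.26, adjusted p = 0.00267) in the same order. Without KO replicate 1 the change of Sema4c against KO was 1.88.

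Sema6c ran opposite to Sema6d. It had 0.113, 1.54, 0.460 and 0.416 CPM in KO + PBS, against 2.94 and 6.91 CPM in KO and 5.98, 4.58 and 4.81 CPM in WT. No KO + PBS library reached an untreated one, which was a condition for naming the gene. The decrease was 2.94 on the log2 scale against KO (SE 0.73, edgeR adjusted p = 0.00832) and 2.99 against WT (SE 0.69, adjusted p = 0.0051). The log2 fold change against KO was -2.20 without KO replicate 2, where the call was lost (adjusted p = 0.0973), and without KO + PBS replicate 2 it was -3.86 against KO and -3.91 against WT. Efna3 had 17.6, 14.4, 13.7 and 11.2 CPM in KO + PBS and 36.1, 50.9 and 47.7 CPM in WT, and fell by 1.66 (SE 0.28, edgeR adjusted p = 0.000863). Exons of Efna3, Efna4 and Sema4c overlap genes on the other strand by 14.1, 10.5 and 7.27% of their bases. Efna1 and Efna4 fell by 1.10 and 1.26 against KO and by 0.61 and 1.18 against WT, while Efna5 rose by 0.70 against KO and 1.18 against WT on the log2 scale. The Efna5 call against KO was lost without KO replicate 2 (adjusted p = 0.223) or WT replicate 1 (0.0512).

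Of the receptors, Nrp1, a co-receptor of Sema3a and of vascular growth factors, had 16.2, 50.2, 16.7 and 27.6 CPM in KO + PBS, against 3.77 and 4.10 CPM in KO and 3.85, 2.30 and 2.11 CPM in WT. Plxna2, a partner of neuropilins, had 56.5, 48.1, 36.0 and 37.3 CPM in KO + PBS, against 10.96 and 15.4 CPM in KO and 23.1, 17.2 and 18.4 CPM in WT. The KO + PBS libraries were above every untreated library for both genes, which the rule for naming required in the comparisons that named them. Nrp1 rose by 2.81 (SE 0.54, edgeR adjusted p = 0.00197) against KO and by 3.33 (SE 0.46, adjusted p = 0.000282) against WT. Plxna2 rose by 1.75 (SE 0.26, edgeR adjusted p = 0.000461) against KO and by 1.19 (SE 0.21, adjusted p = 0.00135) against WT.

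The slit receptors Robo1 and Robo2 were higher than in KO, and Robo4 was lower. Robo1 had 2.60, 13.1, 3.16 and 3.30 CPM in KO + PBS, against 0.783 and 1.27 CPM in KO, and Robo2 had 1.47, 9.77, 3.27 and 2.27 CPM in KO + PBS, against 0.587 and 0.571 CPM in KO. They rose by 2.41 (SE 0.75, edgeR adjusted p = 0.0232) and 2.85 (SE 0.83, adjusted p = 0.0168). Without KO replicate 1 or 2 both calls were lost, at adjusted p = 0.137 and 0.0851 for Robo1 and 0.0887 and 0.107 for Robo2. Replicate 2 had the highest KO + PBS value of both genes, and without it they rose by 1.54 (SE 0.36) and 2.02 (SE 0.50).

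Eph receptors moved both ways. Epha4 had 49.4, 25.8, 41.6 and 32.1 CPM in KO + PBS and 15.8, 13.96 and 16.9 CPM in WT, a rise of 1.26 against WT (SE 0.24, edgeR adjusted p = 0.0016). Ephb1 had 0.565, 2.03, 1.19 and 1.95 CPM in KO + PBS and 4.14, 3.25 and 4.03 CPM in WT, a decrease of 1.40 (SE 0.48, edgeR adjusted p = 0.0316), and this call was lost without any 1 WT library or KO + PBS replicate 3 (adjusted p = 0.0632 to 0.0879). Epha1 fell by 0.86 against KO (SE 0.26, edgeR adjusted p = 0.0197), with 109, 50.9, 86.9 and 73.6 CPM in KO + PBS, and without KO replicate 1 or 2 this call was lost (adjusted p = 0.0908 and 0.0855). Ephb3 was not called in either comparison with KO + PBS (-0.65 against KO and 0.50 against WT). Epha10 and Unc5d were at 0 counts in both KO libraries. Their means in KO + PBS were at least 4.95-fold and 2.88-fold higher when each KO library is set to 3 counts. Most counts came from replicate 3, with 2, 10, 50 and 12 for Epha10 and 0, 8, 25 and 10 for Unc5d in replicates 1 to 4. In replicate 1 both genes were below 3 counts. Without replicate 3 the log2 fold changes were 6.28 and 5.85, in place of 7.35 and 6.59. Without KO replicate 1 or 2 the Epha10 call was lost (log2 fold changes 7.43 and 7.31). The Unc5d call was lost in 6 of the 9 fits without 1 library (0.0520 to 0.173). The remaining calls were Epha4 and Epha8, higher, and Ephb6 and Robo4, lower, against KO, and Epha2, Epha5, Plxna1, Robo2, Sema4d and Sema7a, higher, and Ephb6, lower, against WT, and each of these was lost without at least 1 library (adjusted p up to 0.301).

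Counts of calls against KO depended on the KO libraries, since 17 members were called without KO replicate 1 (40.1% of all genes) and 11 without KO replicate 2 (35.8% of all genes). Against WT, 14 were called without WT replicate 2 (44.3% of all genes) and 14 without WT replicate 3 (46.2%). Without KO + PBS replicate 1 the count was 30 in each comparison (54.1% of all genes against KO and 57.1% against WT). Of the signalling list, 30 of 74 rose and 6 fell against KO, and 38 rose and 5 fell against WT. These are 48.7 and 58.1% of the list, near the 52.9 and 56.3% of all genes called.

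Calls in the marker lists stand beside 52.9% of all genes called against KO and 56.3% against WT. Corneal epithelium markers were near these shares (50 and 58.3%), and keratocyte markers had 50 and 64.3%. Lens markers were above them (85.7 and 78.6%) and vessel endothelium markers below them (23.1 and 7.69%). Corneal endothelium markers were higher for 10 of 10 against KO and 5 against WT (826 to 3056 CPM in KO + PBS, 147 and 149 CPM in KO, 844 to 916 CPM in WT). Lens markers were higher for 12 of 14 against KO and for 10, with 1 lower, against WT (403 to 6184 CPM in KO + PBS, 169 and 177 CPM in KO, 177 to 608 CPM in WT). Retina markers were higher for 11 of 15 against KO and 1 against WT (46.6 to 1349 CPM in KO + PBS, 28.1 and 53.7 CPM in KO, 53.5 to 449 CPM in WT). No iris marker was called against KO, and 1 of 11 was lower against WT.

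Keratocyte markers were higher for 6 of 14 and lower for 1 against KO, and lower for 9 and higher for none against WT (955 to 4913 CPM in KO + PBS, 1410 and 2693 CPM in KO, 7561 to 8124 CPM in WT). Corneal epithelium markers were higher for 2 of 12 and lower for 4 against KO, and higher for 4 and lower for 3 against WT (26310 to 59537 CPM in KO + PBS, 71607 and 106800 CPM in KO, 83789 to 96708 CPM in WT). Gland markers were lower for 7 of 10 against KO and for 5, with 1 higher, against WT, and Lcn11, Obp1a, Scgb2b24, Mup4, Mup5, Awat1, Elovl3 and Bpifa2 were at 0 counts in all 4 KO + PBS libraries. Schwann cell markers were higher for 1 of 13 in both comparisons, lower for 4 against KO and lower for 3 against WT, while leukocyte markers were higher for 3 of 19 and lower for 4 against KO and higher for 8 and lower for 4 against WT. Vessel, lymphatic, axonal and skeletal muscle lists had at most 3 calls each in either comparison. The part of these tissues in the guidance genes was not tested.

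**Figure D4:**
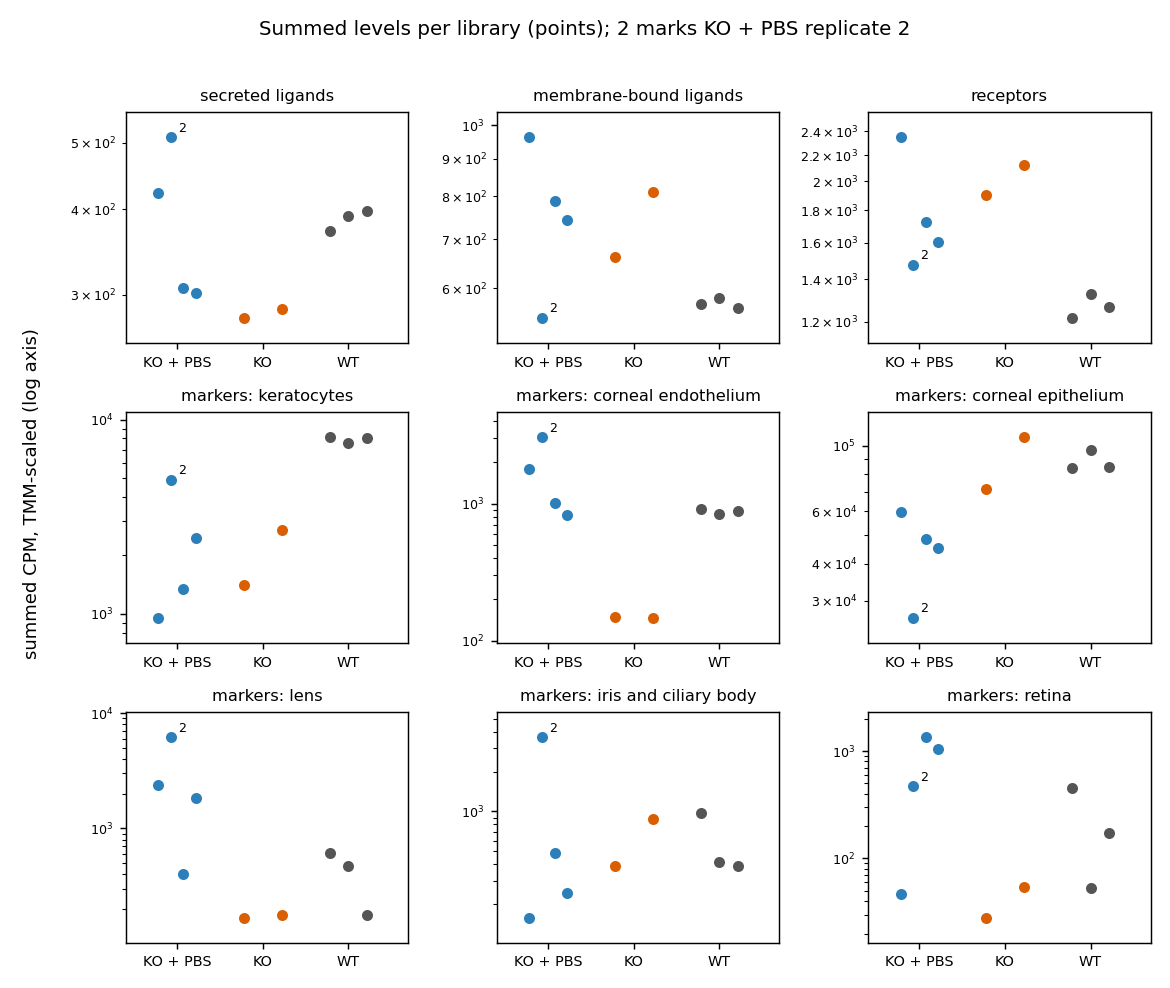
Summed CPM (TMM-scaled, log axes that differ between panels) of the secreted ligands, membrane-bound ligands and receptors and of 6 marker lists in each KO + PBS, KO and WT library, with KO + PBS replicate 2 marked. KO libraries are lowest in secreted ligands and corneal endothelium markers, and replicate 2 is the highest KO + PBS library in secreted ligands, endothelium, lens, iris and keratocyte markers.

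The plot of ratios to the other libraries shows how KO + PBS replicate 2 stands in each guidance gene. Of 52 members with a mean of at least 1 CPM in KO + PBS, replicate 2 was above the other 3 libraries in 26 and below them in 14, and replicate 1 was above the others in 24 and below them in 16. Replicates 1 and 2 were thus each at an extreme in 40 members, replicate 3 in 8 and replicate 4 in 16, where the mean over 4 libraries is 26 by construction. The position at an extreme is therefore not particular to replicate 2. The largest ratio to the median of the others was 6.53 for Sema3b, which had 43.4 CPM in replicate 2 and 5.05 to 8.68 CPM in the others. Robo2 (4.30), Robo1 and Sema6a (4.13 each), Sema3g (4.02) and Slit2 (3.74) followed. Sema5a (0.316), Sema4d (0.325) and Epha2 (0.376) had the lowest ratios. The same library had 26310 CPM of summed corneal epithelium markers, against 45313 to 59537 CPM in the others, and 3646 CPM of iris and ciliary body markers, against 158 to 484 CPM. It had 6184 CPM of lens markers, against 403 to 2380 CPM. The median coefficient of variation over 52 members was 0.378 in KO + PBS, 0.129 in KO and 0.087 in WT.

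Without replicate 2, 28 of 64 members were called against KO (43.8%, against 63.0% of all genes) and 34 against WT (53.1%, against 66% of all genes), so the share was higher than with it over the members and over all genes alike. The 10 members named in each comparison kept their calls without it. Slit2 had log2 fold changes of 4.09 (SE 0.61) against KO and 1.68 (SE 0.45) against WT, Nrp1 2.36 (SE 0.35) and 2.89 (SE 0.31), and Sema3d 3.47 (SE 0.29) and 2.16 (SE 0.23). The calls of Robo2 and Sema7a against WT were lost.

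**Figure D5:**
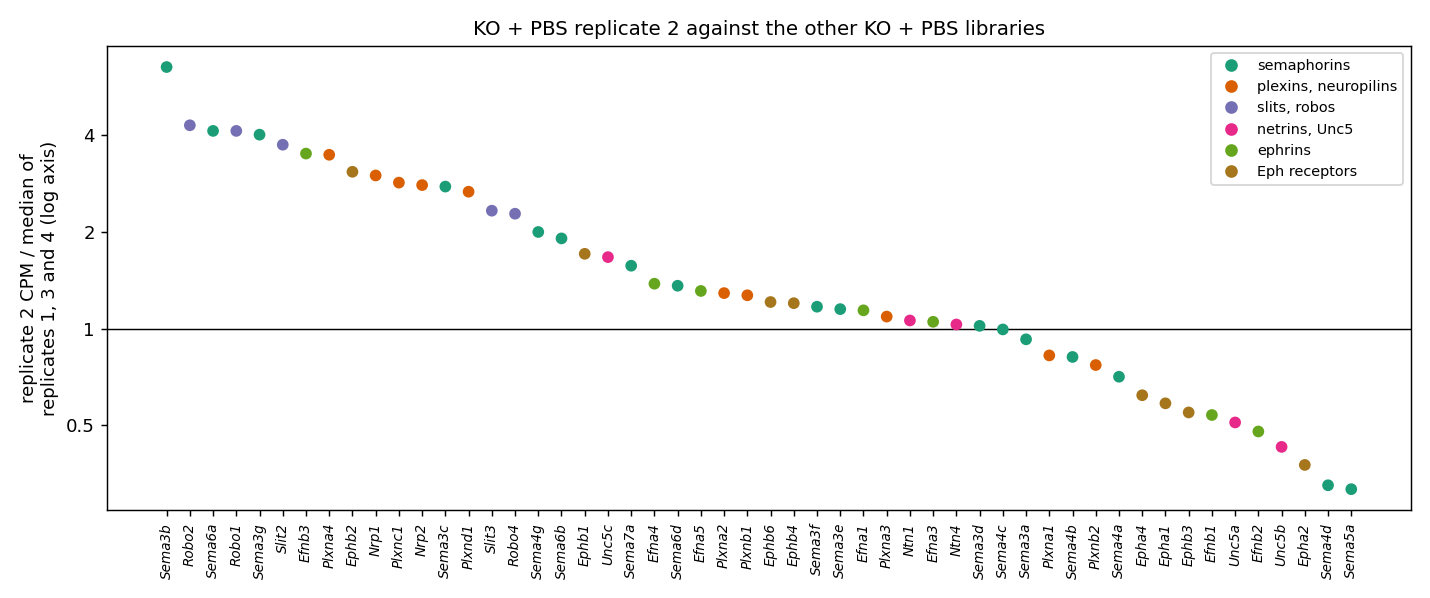
Ratio of KO + PBS replicate 2 to the median of KO + PBS replicates 1, 3 and 4 in TMM-scaled CPM (log axis) for 52 members with a mean of at least 1 CPM, coloured by family. Ratios run from 6.53 for Sema3b to 0.316 for Sema5a, with robos, neuropilins and slits above 1. Eph receptors lie on both sides, with Epha2, Epha1, Ephb3 and Epha4 below 1 and Ephb2, Ephb1, Ephb6 and Ephb4 above it.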

How the data were processed

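Bulk RNA sequencing of whole corneas was analysed in 9 libraries. The deposited table holds the authors' whole-number read counts per gene, not normalized. The labels' protocols describe RNA purification with RNAaqueous and DNase reagents and libraries from a NEBNext Ultra kit. The tools that the authors used, per the submitters' processing notes, are featureCounts, fastp and STAR with build mm10. Versions, gene annotation, strand setting and the treatment of reads with several matches are, in the sources used here, not given. Corneas treated with lacripep, which the design text names, are not analysed here.

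Of 34165 names, 23 read as calendar dates (0.0318 to 0.140% of counts) and were left out. Names were matched to GENCODE M21 (GRCm38), which placed 31434 of them, 982 through an older symbol or synonym; all 67 members matched and code for proteins. Levels per kilobase use the union of a gene's exons.

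Counts were compared with edgeR 4.0.16 (R 4.3.3): filterByExpr, TMM factors with WT replicate 1 as reference library, a robust quasi-likelihood fit across all genes and Benjamini-Hochberg adjustment over all genes tested. KO against WT was fitted to the 5 untreated libraries and the comparisons with KO + PBS to all 9, because the kinds of counts differ. CPM are scaled by TMM factors over all 9 libraries. The standard error is |log2 fold change| over the square root of F. A count of 0 was taken to allow 3 counts per library, which covers counting error only. The script was tested on simulated data.

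The members, lists and tests were chosen with earlier results of these data known. Named are all members called in KO against WT, with values per library for up to 25 of at least 1 CPM in either group, the 10 largest called changes without overlap and of at least 1 CPM in each comparison with KO + PBS, the 3 highest members per kilobase of each family in WT, and the 5 largest called changes of the signalling list; genes named outside this rule complete a list of calls or were chosen after their values were seen. The alternatives were RLE, upper-quartile and default TMM scaling, DESeq2 1.42.0, no filter, a minimum of 1 CPM in 2 libraries, non-robust dispersion, the replicate number as a block, other sets of libraries in the fit, protein-coding genes alone and leaving out each library. DESeq2 on all 9 libraries was added after seeing the data. No pair of libraries of a group agreed within sampling noise.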

Additional observations from a re-analysis of the deposited data

Results flagged for a closer look

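Within the 4 KO + PBS libraries, 5 of 52 members of at least 1 CPM had 1 library far from the other 3, with a gap to its neighbour past Dixon's 95% critical value for 4 samples, which chance exceeds in about 1 in 20 groups. In replicate 2, Nrp2 had 55.64 CPM (16.87 to 20.2 in the others), Plxna4 12.15 CPM (3.11 to 4.409), Robo1 13.07 CPM (2.6 to 3.297) and Sema3b 43.44 CPM (5.05 to 8.68). In replicate 1, Sema3d had 27.28 CPM, against 16.52 to 17.39 CPM in the others. Replicate 2 is the library with the highest share of mitochondrial counts (6.13%) and the highest iris and lens marker sums of its group, and their part in these values was not tested.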

How the results depend on the processing

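No member called in KO against WT, and none of the 10 named in each comparison with KO + PBS, changed direction in any alternative fit. The count of members called in KO against WT (22) was 20 to 27 under the scalings, filters and other settings on the untreated libraries apart from the block described below, 0 in the fit to all 9 libraries and 12 with DESeq2 on all 9, and 11 to 29 with 1 library left out. Over all genes (3681 called) the same fits gave 282, 1870 and 1305 to 6340. The signalling list had 0 calls with all 9 libraries, against 19. The replicate number as a block left 10 members and 1208 genes called in KO against WT, and 17 members in each comparison with KO + PBS. Deviations from the group means correlated at -0.351 to 0.166 between same-numbered libraries. The 2 KO libraries deviate from their mean in mirror image, so these values are partly fixed and cannot exclude that the numbers pair the samples. Against KO, the KO + PBS comparison called 15 members (24 in the reported fit) when only the 2 groups were fitted and 11 to 30 with 1 library left out, where all genes gave 7510 and 7000 to 11678 (9786 in the reported fit). Against WT (23) it called 14 to 34 with 1 library left out, where all genes gave 8139 to 12248 (10401). Upper-quartile scaling moved the split of higher to lower calls over all genes to 1688 and 2032 in KO against WT (2062 and 1619 with TMM), to 5272 and 4881 in KO + PBS against KO (4033 and 5753) and to 5662 and 5083 in KO + PBS against WT (4619 and 5782). It shifted the median of all genes by 0.25 against KO and 0.18 against WT on the log2 scale, and the members' calls were then 21 higher and 4 lower against KO and 25 higher and 5 lower against WT. Protein-coding genes alone gave 3428 higher and 3668 lower genes against KO and 3805 and 3795 against WT. Of the values of named members, 78 of 336 in KO against WT and 7 and 6 of 190 in the comparisons with KO + PBS missed the threshold. Depth limits the 13 members under 1 CPM in WT most, since 3 counts equal 0.0287 to 0.131 CPM.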
